A study of Mus musculus with 24 samples.

Results

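The mitochondrial ribosomal protein genes are the 78 genes of 12010 in the deposited expression table whose symbol begins with Mrpl or Mrps and a digit: 49 genes of the large subunit (Mrpl) and 29 of the small subunit (Mrps). They were followed through 8 lines of B16F10-luc2, a mouse melanoma cell that carries a luciferase gene, with 3 RNA libraries per line. The parental line keeps Mitf, Tfeb and Tfe3, which encode related transcription factors of melanocyte identity, lysosome formation and nutrient response. The other 7 lines lack MITF (MITF KO), TFE3 (TFE3 KO), TFEB (TFEB KO), TFEB and TFE3 (TFEB/TFE3 DKO), MITF and TFE3 (MITF/TFE3 DKO), MITF and TFEB (MITF/TFEB DKO) or all of them (TKO). The authors saw a minor band in the MITF KO blot and propose that some shortened MITF may remain at a low level. All lines carry the luciferase gene and grew in the same medium with serum. The MITF KO was a line described earlier, and the other lines without MITF were made from it, so these 4 lines are not independent. TFEB and TFE3 knockouts were grown from single isolated clones. A difference between clones and the effect of the lost gene cannot be told apart, and p-values measure only the spread between libraries of a line. The comparisons ask how the expression of these genes depends on each factor, and the 7 comparisons with the parental line share its 3 libraries.

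Mitochondria carry their own ribosome, which makes the few respiratory chain proteins encoded in mitochondrial DNA. Its RNAs come from that DNA, but every one of its proteins is encoded in the nucleus, made in the cytosol and imported. The small subunit reads the messenger RNA, and the large subunit joins the amino acids. Compared with its bacterial ancestor the particle has less RNA and more protein, and many of its proteins have no bacterial relative. Of the 78 genes, 46 were assigned to bacterial homologues and 31 to proteins specific to mitochondria. The remaining one, Mrps36, is absent from ribosome structures and is better known as a subunit of the alpha-ketoglutarate dehydrogenase complex. Symbols do not always give the place in the particle: Mrps30 and Mrps18a lie in the large subunit, so by structure 51 genes are large and 26 small.

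MITF, TFEB and TFE3 bind the E-box CACGTG, best within the longer TCACGTGA, which contains it. RefSeq promoter windows, from 250 bases before to 50 bases after the start of a gene, matched 69 of the 78 genes by symbol (table build GRCm38.p6). CACGTG, which reads the same on both strands, was in the windows of 5 of the 69 (7.25%), against 11.97% of the 9647 genes of the expression table with a window and 8.09% of all 27025 genes with one. TCACGTGA was in the windows of Mrpl2, a core protein of the peptidyl transferase centre, and Mrps18c, the homologue of bacterial S18 in the small subunit, 2.90% against 2.30% of the table's genes. Their 60 bases around the motif are shown, with those of Mrpl20, a large subunit protein with the shorter E-box. In these members the motif bound by the deleted factors lies upstream of the GENCODE gene model. Capitals mark the motif, and each sequence was located by exact match in GRCm39, 5′ to 3′ on the plus strand.
Mrpl2, chr17:46956979-46957038: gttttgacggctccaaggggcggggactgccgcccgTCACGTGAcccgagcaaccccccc
Mrps18c, chr5:100946425-100946484: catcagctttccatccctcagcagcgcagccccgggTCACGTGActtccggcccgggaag
Mrpl20, chr4:155887265-155887324: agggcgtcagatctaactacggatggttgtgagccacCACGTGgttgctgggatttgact

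The motif began 102 bases before the GENCODE start of Mrpl2, 32 bases before that of Mrps18c and 33 bases before that of Mrpl20. The other 2 E-box genes, Mrpl36 and Mrpl37, have it within the span of their GENCODE gene models. By the RefSeq starts used for the windows it lies 43 and 162 bases upstream of them. Motifs of 2 other factor families were searched on both strands. The NRF1 motif GCATGCGC was in 8 of 69 windows (11.6%, against 6.25% of the table's genes) and the ETS motif CCGGAAGT in 12 (17.4%, against 9.62%). A match is a run of letters and says nothing of binding in these cells.

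The libraries held 18300902 to 26667877 reads on genes, and 76 of the 78 genes had at least 10 reads in every library, the lowest value being 9 reads. Tfeb ranged over 2.06 to 5.27 CPM (reads scaled to library size by edgeR, the deposited unit) in the 12 libraries of lines labelled as lacking it and 7.87 to 22.7 in the others. Tfe3 ranged over 8.01 to 21.7 and 31.1 to 62.5 CPM. Mitf RNA did not separate the lines (325.7 to 1470.5 against 646.2 to 902.8 CPM), and the 3′ reads do not show the frameshift made in it. Markers moved with the lines, and their part in the results was not tested. The summed level of 7 melanocyte lineage markers was 26134 to 26953 CPM in parental cells, highest in the MITF KO (38412 to 40321) and lowest in the MITF/TFEB DKO (17175 to 19640) and TKO (15826 to 16858). The 2 of 5 fibroblast markers in the table, Col1a1 and Col1a2, summed to 9.73 to 12.5 CPM in parental cells. Their sum was highest in the MITF/TFEB DKO (34.4 to 45.3 CPM) and the MITF KO (32.7 to 41.5 CPM). The 2 of 5 leukocyte markers, Cd68 and Lyz2, summed to 0.22 to 1.77 CPM in parental cells, 3.37 to 5.12 in the MITF/TFEB DKO and 3.64 to 4.52 in the TKO. Pecam1, the 1 of 3 endothelial markers, was at 7.73 to 8.59 CPM in parental cells and 25.5 to 31.6 in the TFEB/TFE3 DKO. It was at most 0.63 CPM in the MITF KO, MITF/TFEB DKO and TKO, 1.10 to 2.03 in the MITF/TFE3 DKO and 1.82 to 2.79 in the TFE3 KO. Ptprc, Cd3e, Dcn and Cdh5 were not among the table's genes.

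In the parental line, Mrpl12 had the highest level, at 586, 655 and 633 CPM. It encodes the stalk protein of the large subunit, which also binds the mitochondrial RNA polymerase. Mrps25, a small subunit protein specific to mitochondria, followed with a mean of 316 ± 25.1 CPM (SD, n = 3), and then Mrpl53 (270 ± 27.7), Mrpl51 (255 ± 12.6), Mrps23 (244 ± 28.0) and Mrps6 (235 ± 17.8). The last 4 lay within about 1 SD of a neighbour in this order. The reads come from the 3′ end, so a level is per transcript and does not grow with gene length. The median was 102 CPM for the large subunit genes and 80.5 CPM for the small subunit genes.

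The lowest levels were those of Mrps18b and Mrps36, each at a mean of 0.61 CPM, Mrps28 at 2.23 ± 0.95, Mrpl23 at 2.93 ± 1.23 and Mrpl32 at 14.97 ± 1.91 CPM. Among the paralogues of bacterial S18, Mrps18b stood apart at 0.60, 0.82 and 0.40 CPM in parental cells. Mrps18a, at 59.8, 64.3 and 62.4 CPM, and Mrps18c, at 46.9, 51.9 and 69.0 CPM, overlapped. Of the 50-base stretches in the last 300 bases of Mrpl23, 99.2% also occur in 1 other annotated gene, and for Mrps15, which was not among the low genes, the share was 72.1%. For the other low genes, Mrps18b, Mrps36, Mrps28 and Mrpl32, it was 0%. The part of shared stretches in any level was not tested. In all, 14 of the 78 genes shared such stretches with another gene and 12 overlapped a gene on the opposite strand at the 3′ end. On the same strand 1 gene did, Mrps15, which overlapped Oscp1.

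The family as a whole took 0.695% to 0.883% of the reads on genes. Large subunit genes summed to 5625 to 5974 CPM in the 3 parental libraries and to 4484 to 4764 CPM in the MITF/TFEB DKO, 79% of the parental mean. In the TKO the sum was 4755 to 4958 CPM (82.8%). Both lines lay below every parental library, and below every library of the MITF KO, TFE3 KO and TFEB KO. A CPM value is a share of the library's reads, so a lower sum is a lower share and not an amount per cell. In bulk RNA, fewer cells of a kind and less RNA per cell also cannot be told apart.

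Small subunit genes summed to 2592 to 2770 CPM in parental cells, 2010 to 2161 CPM in the MITF/TFEB DKO (78.8% of the parental mean) and 2094 to 2187 CPM in the TKO (80.0%). The TFEB/TFE3 DKO differed from these lines in that its large subunit sum was 87.2% of the parental mean and its small subunit sum 93.6%. The TFE3 KO and TFEB KO means stayed within 3% of the parental one for both subunits, and their libraries overlapped the parental range.

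The ratio of the large to the small subunit sum was 2.19 ± 0.05 (SD, n = 3) in the parental line. It was highest in the MITF/TFE3 DKO (2.30 to 2.38) and the MITF KO (2.25 to 2.35), and lowest in the TFEB/TFE3 DKO (2.01 to 2.097). The libraries of these 3 lines did not overlap the parental range of 2.16 to 2.25, nor did those of the TKO (2.26 to 2.29), while the MITF/TFEB DKO (2.12 to 2.24) did. Without Mrpl12 the ratio was 1.96 ± 0.04 in the parental line, 2.12 ± 0.04 for the MITF/TFE3 DKO and 1.84 ± 0.05 for the TFEB/TFE3 DKO. The MITF KO, at 2.07 ± 0.06, then overlapped the parental range of 1.9202 to 2.007, with replicate 2 at 1.9977. The TKO libraries (2.0558 to 2.0882) stayed above that range. The ratio was not tested, since it sums genes of very different levels. The plot of summed levels shows both subunits lower in the MITF/TFEB DKO and TKO.

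**Figure D1:**
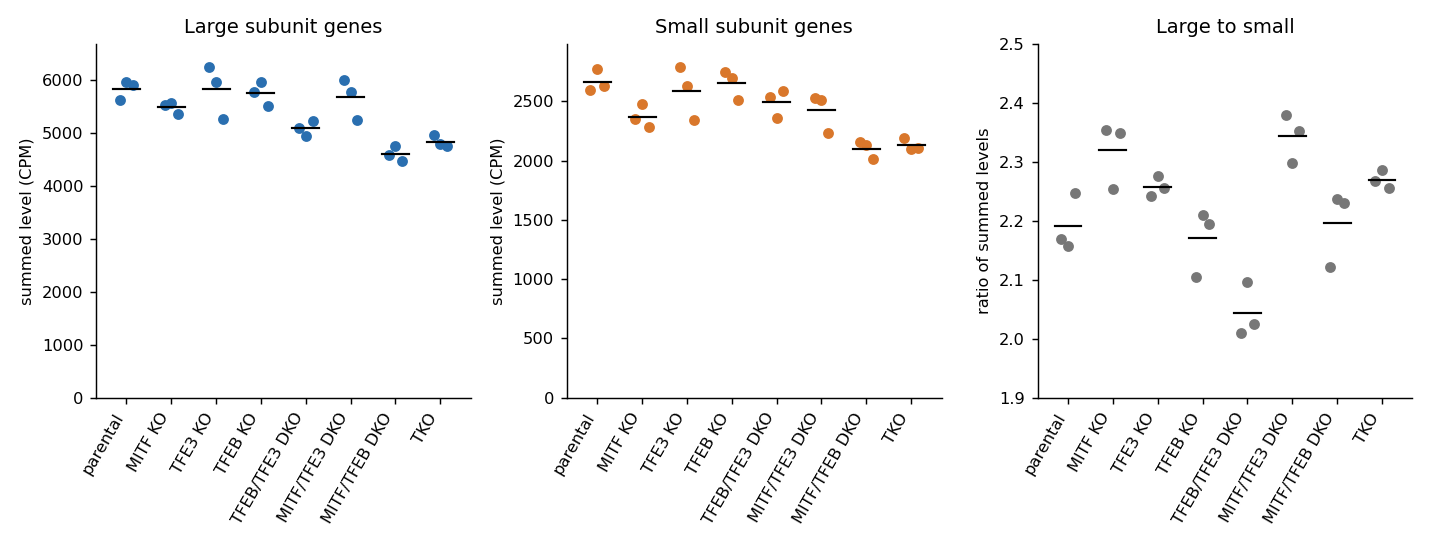
Summed levels in CPM of the 49 large subunit genes (left) and 29 small subunit genes (middle), and their ratio (right, axis from 1.9), in each library of the 8 lines. Points are libraries and bars are means of 3. The MITF/TFEB DKO and TKO have the lowest sums, at 78.8% to 82.8% of the parental mean, while the ratio stays between 2.01 and 2.38 in all 24 libraries.

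In the line without MITF alone, more mitochondrial ribosomal protein genes fell than rose. By limma on log2(CPM + 1) with Benjamini-Hochberg adjustment over all genes, 28 of 78 fell in the MITF KO (background of all genes lower, 17.8%) and 3 rose (background 20.1%). The median log2 fold change was −0.20, beside 0.00 over all genes. The falls were 16 of 49 large and 12 of 29 small subunit genes, with medians of −0.19 and −0.25. Without parental replicate 3 the number that fell was 18.

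Mrps6, a platform protein of the small subunit with a bacterial homologue, fell furthest in the MITF KO. Its parental levels of 216, 251 and 240 CPM stood against 156, 164 and 142 CPM, with no overlap (log2 fold change −0.61 ± 0.09 SE, limma adjusted p = 1.6e-05). Mrpl9 (−0.53) and Mrps18c (−0.50) came next, but their calls were lost in 5 and 3 of the 6 fits that left out 1 library, with adjusted p up to 0.17 for both. The 3 genes that rose were all of the large subunit, to which 49 of the 78 members belong. Mrpl34 was at 180, 209 and 185 CPM in parental cells and at 281, 283 and 244 CPM in the MITF KO (0.49 ± 0.11, adjusted p = 0.0011). Mrpl24, which lies near the exit of the peptide tunnel, rose by 0.41 (adjusted p = 0.0022), and Mrpl33 by 0.25 (adjusted p = 0.036, up to 0.14 without 1 library).

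TFE3 KO and TFEB KO cells showed few differences. In the TFE3 KO 4 genes fell (background 7.78%) and 2 rose (background 4.5%), and the median was −0.00 on the log2 scale. In the TFEB KO 2 fell (background 2.59%) and 0 rose by limma (background 2.25%), where 2 were higher at an unadjusted p under 0.05 and edgeR called 0. The median was −0.02. These counts moved with single libraries. The number lower in the TFE3 KO was 2 without parental replicate 1, 1 without parental replicate 2, 2 without TFE3 KO replicate 2 and 9 without TFE3 KO replicate 1. The number higher was 1 without parental replicate 1 or 2, 0 without TFE3 KO replicate 2 and 4 without TFE3 KO replicate 1 or 3. The number lower in the TFEB KO was 0 without parental replicate 1 or 2 or TFEB KO replicate 2 or 3, and 1 without TFEB KO replicate 1.

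Mrps6 also fell in the TFE3 KO, to 180, 169 and 146 CPM (−0.52 ± 0.09, limma adjusted p = 5.2e-04), and this call held in all 6 fits that left out 1 library. In the TFEB KO it was at 249, 297 and 262 CPM (0.19 ± 0.09, adjusted p = 0.30). Mrpl2 was the gene with a call in both. From 147, 144 and 123 CPM in parental cells it stood at 111, 107 and 107 CPM in the TFE3 KO (−0.34 ± 0.09, adjusted p = 0.017) and at 123, 103 and 104 CPM in the TFEB KO (−0.32 ± 0.09, adjusted p = 0.045). Its calls were lost in 3 and 4 of the fits that left out 1 library, at adjusted p up to 0.086 and 0.20, and that in the TFEB KO also with edgeR and with median-of-ratios size factors. Mrpl52, of the large subunit, was the other gene lower in the TFEB KO (−0.27, adjusted p = 0.036, up to 0.17 without 1 library).

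In the TFEB/TFE3 DKO 8 genes fell (background 4.09%) and 0 rose by limma (background 4.72%), with 0 higher at an unadjusted p under 0.05 and 0 by edgeR. The fold changes were small but mostly of 1 sign: 70 of 78 genes were below 0, and the median was −0.18 beside −0.02 over all genes. The falls were led by Mrpl33 (−0.45 ± 0.09, limma adjusted p = 0.0029), Mrpl53 (−0.45, adjusted p = 0.018, up to 0.12 without 1 library) and Mrpl54 (−0.43 ± 0.09, adjusted p = 0.0041). Mrpl54 was at 151, 161 and 159 CPM in parental cells and at 120, 113 and 117 CPM in the DKO, so the groups did not overlap. Of the 8, 7 were large subunit genes, beside 49 of all 78 members. The number lower was 4 without parental replicate 2 or 3 and 5 without TFEB/TFE3 DKO replicate 1 or 3.

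When MITF and TFE3 were both lost, 18 genes fell (background 21.7%) and 7 rose (background 20.2%), with a median of −0.06. When MITF and TFEB were both lost, 48 fell (background 27.3%) and 4 rose (background 28.8%), with a median of −0.35 beside 0.01 over all genes. In the TKO 44 fell (background 27.9%) and 8 rose (background 28.3%), with a median of −0.31. In the MITF/TFEB DKO the falls covered 33 of 49 large and 15 of 29 small subunit genes, and in the TKO 28 and 16. Of the counts, the number higher in the MITF/TFE3 DKO was 4 without MITF/TFE3 DKO replicate 1 and the number lower 11 without replicate 3. The number higher in the TKO was 3 without parental replicate 1, 4 without TKO replicate 1 and 5 without parental or TKO replicate 2.

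**Figure D2:**
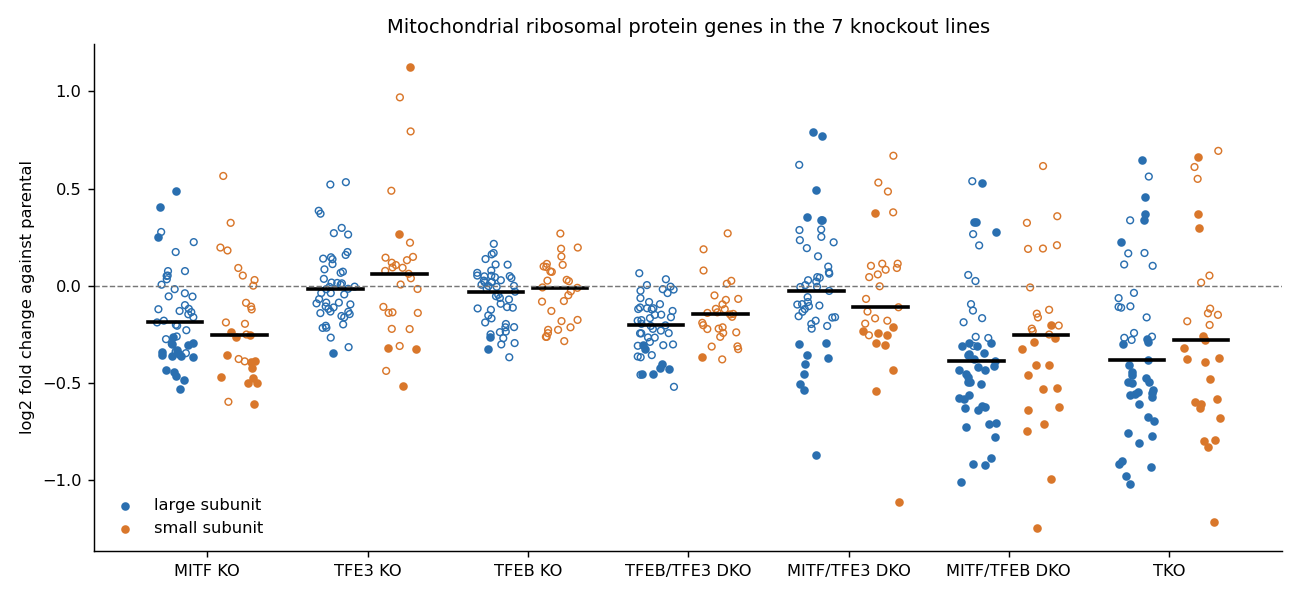
Log2 fold change of each of the 49 large (blue) and 29 small (orange) subunit genes against the parental line, for the 7 knockout lines. Filled points have an adjusted p under 0.05 (limma), and black bars are medians. Medians lie between −0.03 and 0.06 in the TFE3 KO and TFEB KO and between −0.25 and −0.38 in the MITF/TFEB DKO and TKO.

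Few of these genes reached a 2-fold change with an unadjusted p under 0.05. The count was 0 in the MITF KO (background 6.28%, edgeR 1), 1 in the TFE3 KO (background 1.71%, edgeR 2), 0 in the TFEB KO (background 0.783%, edgeR 0) and 0 in the TFEB/TFE3 DKO (background 0.958%, edgeR 0). It was 1 in the MITF/TFE3 DKO (background 5.87%, edgeR 2), 2 in the MITF/TFEB DKO (background 13.7%, edgeR 4) and 2 in the TKO (background 14.7%, edgeR 3). The count was 1 in the MITF/TFEB DKO without parental replicate 2, and 1 in the TKO without parental replicate 3 or TKO replicate 1. In the TFE3 KO it was 0 without TFE3 KO replicate 2 and 3 without TFE3 KO replicate 1. In the TFE3 KO the gene was Mrps36, which rested on few reads. It was at 0.56, 0.68 and 0.58 CPM in parental cells and at 1.35, 4.76 and 2.19 CPM in the TFE3 KO (1.13 ± 0.27, limma adjusted p = 0.0081), and without TFE3 KO replicate 2 the adjusted p was 0.085. In the TKO it was at 1.31, 2.23 and 1.204 CPM (0.66, adjusted p = 0.043, up to 0.18 without 1 library).

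Mrps33, a small subunit protein specific to mitochondria, was the member past 2-fold in the MITF/TFE3 DKO, the MITF/TFEB DKO and the TKO. It was at 28.8, 29.4 and 27.7 CPM in the parental line and at 21.2, 24.02 and 20.4 CPM in the MITF KO (−0.38 ± 0.16, limma adjusted p = 0.072). It fell to 14.03, 9.705 and 15.04 CPM in the MITF/TFE3 DKO (−1.11 ± 0.16, adjusted p = 1.0e-05), to 14.43, 10.495 and 10.03 CPM in the MITF/TFEB DKO (−1.24 ± 0.16, adjusted p = 8.4e-07) and to 11.3, 11.9 and 12.2 CPM in the TKO (−1.21 ± 0.16, adjusted p = 1.1e-06). Every library of these 3 lines was below every library of the other 5. The median change of its chromosome neighbours was −0.06, 0.12 and 0.16 in the same comparisons.

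Mrpl21, a large subunit protein with a bacterial homologue, separated the MITF/TFEB DKO and TKO from the MITF/TFE3 DKO. Its levels were 70.4, 81.7 and 82.6 CPM in parental cells and, without MITF and TFE3, 67.1, 62.1 and 61.5 CPM (−0.29 ± 0.08, limma adjusted p = 0.0046). They were 39.3, 38.4 and 37.3 CPM in the MITF/TFEB DKO (−1.01 ± 0.08, adjusted p = 2.0e-10) and 38.8, 40.2 and 38.4 CPM in the TKO (−0.98 ± 0.08, adjusted p = 2.9e-10). Its neighbours on chromosome 19 had medians of −0.33 and −0.34 in the last 2 lines, and their part in the result was not tested.

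Mrps22, a small subunit protein specific to mitochondria, fell from 109, 112 and 91.9 CPM to 48.4, 57.5 and 49.6 CPM in the MITF/TFEB DKO (−0.99 ± 0.09, limma adjusted p = 2.2e-09). Its 3′ end overlaps Copb2 on the other strand. Mrpl1, part of the stalk where spent transfer RNA leaves, was past 2-fold in the TKO, from 22.6, 18.7 and 22.3 CPM to 9.65, 10.1 and 10.0 CPM (−1.02 ± 0.14, adjusted p = 1.6e-06). Mrpl12 fell to 424, 418 and 380 CPM in the MITF/TFEB DKO (−0.61 ± 0.09, adjusted p = 3.3e-06) and to 441, 415 and 421 CPM in the TKO (−0.55 ± 0.09, adjusted p = 1.3e-05), below all libraries of the other 6 lines.

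A few genes moved the other way. Mrpl17, a large subunit protein near the tunnel exit, was at 192, 199 and 197 CPM in parental cells and rose to 302, 290 and 258 CPM in the MITF/TFEB DKO (0.53 ± 0.10, limma adjusted p = 1.1e-04) and to 278, 265 and 264 CPM in the TKO (0.45 ± 0.10, adjusted p = 5.2e-04). In the MITF/TFE3 DKO it was at 179, 182 and 146 CPM (−0.22 ± 0.10, adjusted p = 0.082). All 6 libraries of the first pair of lines were above the other 18. Mrpl15 (0.33, adjusted p = 0.0033), Mrpl24 (0.33, adjusted p = 0.0070) and Mrpl54 (0.28, adjusted p = 0.012) were the other members that rose in the MITF/TFEB DKO. All 4 belong to the large subunit, as do 49 of the 78 members.

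In the MITF/TFE3 DKO the largest falls after Mrps33 were Mrpl48 (−0.87 ± 0.12, limma adjusted p = 3.0e-06) and Mrps12 (−0.54 ± 0.14, adjusted p = 0.0026). Mrpl48, part of the central protuberance, was at 34.8, 35.7 and 29.1 CPM there, below the other 21 libraries. Mrps12 encodes the homologue of the bacterial decoding protein S12. Mrpl34 rose as in the MITF KO, to 284, 285 and 243 CPM (0.50 ± 0.11, adjusted p = 9.0e-04). Mrpl42 (0.77, adjusted p = 0.0099, 0.053 without MITF/TFE3 DKO replicate 1) and Mrpl44 (0.79, adjusted p = 0.021, up to 0.13 without 1 library) had larger values and wider spread.

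**Figure D3:**
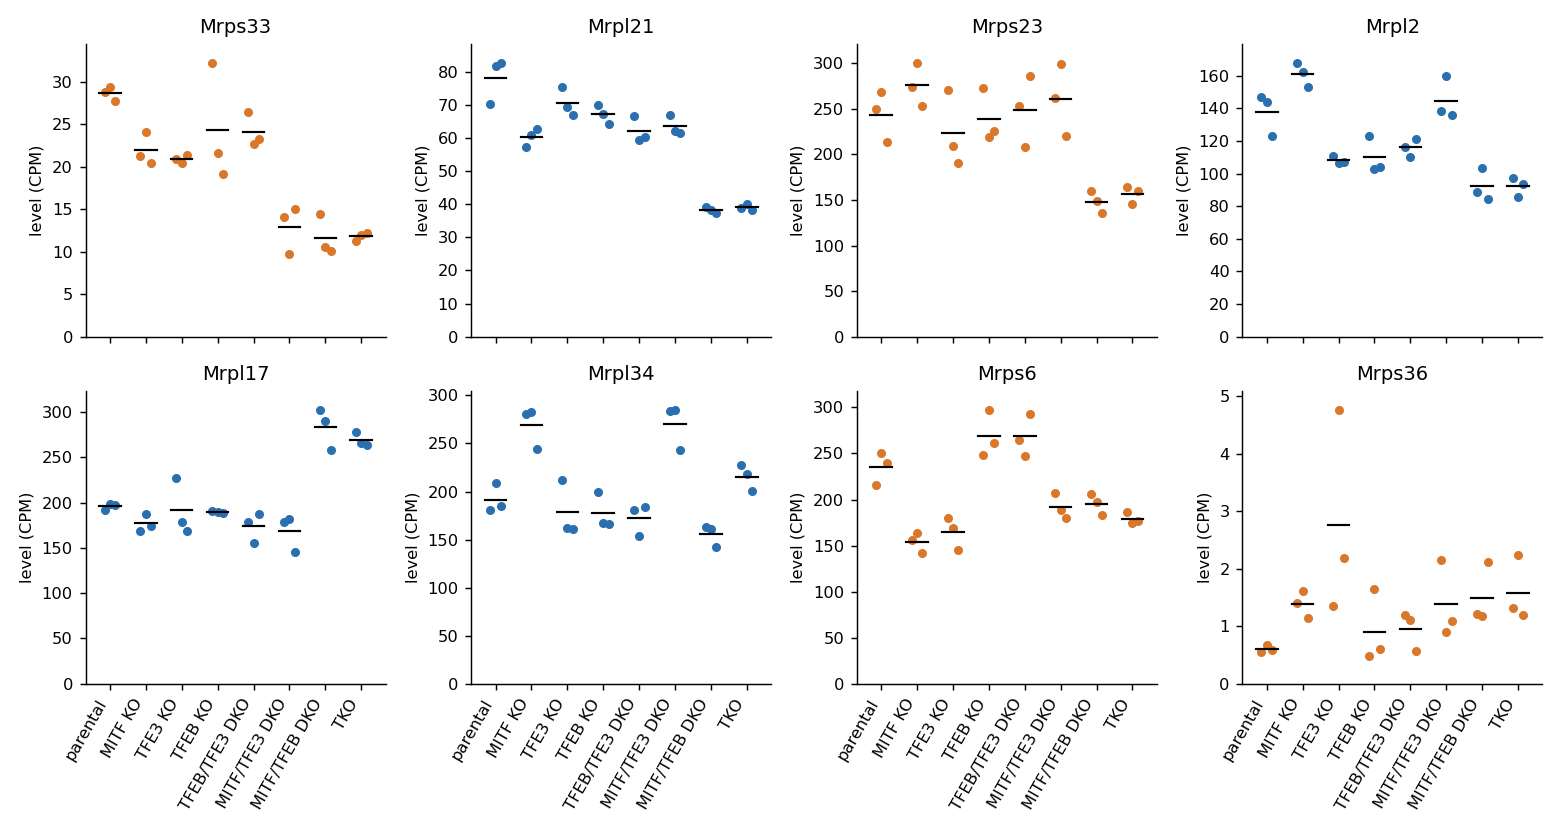
Levels in CPM of 8 members in each library of the 8 lines (blue, large subunit; orange, small subunit; bars are means of 3; axes start at 0). Mrps33 is lowest in the 3 lines that lack MITF with TFE3, TFEB or both, Mrpl21 and Mrps23 are lowest and Mrpl17 highest in the MITF/TFEB DKO and TKO, and Mrps36 stays under 5 CPM in every library.

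Several members varied between libraries of the same line. Mrps28 had the widest spread of line means (1.95 on the log2 scale), and its values in the TFE3 KO were 0.80, 10.6 and 10.1 CPM and in the MITF/TFE3 DKO 7.72, 1.13 and 3.57 CPM. It passed the test in none of the 7 comparisons with the parental line by limma. Mrps21 was at 21.6, 56.6 and 36.1 CPM in the TFE3 KO. The TFEB KO had 16.1, 42.6 and 20.8 CPM and the TFEB/TFE3 DKO 12.2, 28.7 and 9.81 CPM. Mrpl42 was also highest in replicate 2 of these 3 lines, at 109, 70.7 and 60.6 CPM. At the other end were Mrpl40, whose line means spanned 0.23 on the log2 scale, Mrps25 (0.28), Mrps31, Mrps9 and Mrpl47 (0.34 each). Over all 78 genes the median span was 0.70. It was under 0.5 in 17 genes and at least 1 in 9.

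The next comparisons were among lines that all carry the MITF knockout. Against the MITF KO, 24 genes were higher on further loss of TFE3 (background 18.1%) and 8 lower (background 19.7%), with a median of 0.15 beside −0.01 over all genes. On further loss of TFEB 33 were lower (background 23.9%) and 6 higher (background 25.1%), with a median of −0.17. On loss of both 31 were lower (background 23.9%) and 10 higher (background 26.1%), with a median of −0.13. The number higher on TFE3 loss was 12 without MITF KO replicate 2 and 8 without MITF/TFE3 DKO replicate 1. The number higher in the TKO was 4 to 6 without MITF KO replicate 1 or any 1 TKO library.

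Mrpl2, with TCACGTGA upstream, stood at 168, 162 and 153 CPM without MITF and at 138, 160 and 136 CPM once TFE3 was lost too. Against the MITF KO it fell to 88.8, 104 and 84.7 CPM in the MITF/TFEB DKO (−0.80 ± 0.09, limma adjusted p = 2.0e-07) and to 97.3, 86.0 and 93.9 CPM in the TKO (−0.80 ± 0.09, adjusted p = 2.3e-07). Mrps18c, with the same motif, was at 40.9, 39.4 and 36.0 CPM in the MITF KO and rose to 72.9, 52.2 and 56.2 CPM in the MITF/TFE3 DKO (0.61 ± 0.17, adjusted p = 0.0080, 0.062 without MITF/TFE3 DKO replicate 1). It was at 28.6, 39.4 and 38.2 CPM in the MITF/TFEB DKO (−0.14 ± 0.17, adjusted p = 0.53). In the TKO it was at 31.6, 35.9 and 35.0 CPM (−0.18 ± 0.17, adjusted p = 0.41). With the parental line as the reference both genes fell in these 2 lines, Mrpl2 by 0.57 on the log2 scale in each and Mrps18c by 0.64 in the MITF/TFEB DKO (limma adjusted p = 0.0033) and 0.68 in the TKO (adjusted p = 0.0020). In the MITF KO itself Mrpl2 had a value of 0.22 (adjusted p = 0.059) and Mrps18c of −0.50 (adjusted p = 0.026, up to 0.17 without 1 library).

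Over the 5 E-box genes the median change from parental cells was −0.43 in the MITF/TFEB DKO, beside −0.35 for the 64 without the motif, −0.49 beside −0.31 in the TKO and 0.11 beside −0.09 in the MITF/TFE3 DKO. Between the last line and the MITF/TFEB DKO it was −0.64 beside −0.28. The order was the other way in the MITF KO, with −0.13 beside −0.23. Against the MITF KO it was −0.18 beside −0.19 in the MITF/TFEB DKO and −0.18 beside −0.12 in the TKO. For the 8 genes with the NRF1 motif the median change from parental cells in the TKO was 0.04, beside −0.38 for the 61 without it. These medians rest on few genes and were not tested.

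Mrps23, a small subunit protein specific to mitochondria, was the largest fall on adding TFEB loss to MITF loss. Its levels went from 274, 300 and 254 CPM in the MITF KO to 160, 149 and 135 CPM in the MITF/TFEB DKO (−0.89 ± 0.14, limma adjusted p = 9.5e-06) and 165, 145 and 160 CPM in the TKO (−0.81 ± 0.14, adjusted p = 3.2e-05). Mrps18a, which lies in the large subunit despite its symbol, fell furthest in the TKO against the MITF KO, from 68.9, 79.6 and 66.3 CPM to 35.1, 35.4 and 33.1 CPM (−1.03 ± 0.12, adjusted p = 2.1e-07). Mrpl17 rose by 0.67 and 0.60 in these comparisons. Mrps6 rose by 0.34 in the MITF/TFEB DKO (adjusted p = 0.0038) and by 0.32 in the MITF/TFE3 DKO (adjusted p = 0.010, up to 0.061 without MITF KO replicate 3 or MITF/TFE3 DKO replicate 1), so that both stayed below the parental line but above the MITF KO. Mrps21 rose past 2-fold in the MITF/TFE3 DKO (1.06, adjusted p = 0.035, up to 0.16 without 1 library) and in the TKO (1.08, adjusted p = 0.024, up to 0.12). For Mrps21, 23.9% of the 50-base stretches in the last 300 bases also occur in 1 other annotated gene.

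The MITF/TFEB DKO was also set directly against the MITF/TFE3 DKO, which differ in which factor besides MITF is lost. Here 40 genes were lower (background 22.4%) and 2 higher (background 25.5%), with a median of −0.30 beside 0.01 over all genes. The 2 higher genes were Mrpl17 (0.75 ± 0.10, limma adjusted p = 1.8e-06) and Mrpl48 (0.60 ± 0.12, adjusted p = 1.7e-04). Without MITF/TFE3 DKO replicate 2 the number higher was 5. The lowest were Mrpl50 (−0.97 ± 0.17, adjusted p = 4.6e-05), Mrps18a (−0.90 ± 0.12, adjusted p = 1.3e-06) and Mrpl49 (−0.81 ± 0.09, adjusted p = 7.3e-08). Mrpl50, a large subunit protein specific to mitochondria, went from 44.4, 32.3 and 40.5 CPM in the MITF/TFE3 line to 15.6, 20.7 and 22.3 CPM in the MITF/TFEB line, without overlap. The medians were −0.37 for large and −0.16 for small subunit genes. This gap was the widest of the 11 comparisons over all members, but without 17 members of low level or with a shared 3′ end it was −0.097, less than in the MITF KO (0.12) and in the MITF/TFE3 DKO against the MITF KO (−0.13).

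Whether TFEB loss acted differently in cells with and without MITF was tested as an interaction over the parental, TFEB KO, MITF KO and MITF/TFEB DKO lines. The effect was lower without MITF for 24 genes (background 17.4%) and higher for 4 (background 17.7%), with a median difference of −0.12. Mrpl18, a large subunit protein of the central protuberance, went from 229, 231 and 244 CPM in parental cells to 251, 245 and 242 CPM in the TFEB KO (0.07), and from 237, 220 and 229 CPM in the MITF KO to 136, 138 and 135 CPM in the MITF/TFEB DKO (−0.74). The difference was −0.80 ± 0.12 (limma adjusted p = 1.7e-05). Mrps23 differed by −0.87 ± 0.19 (adjusted p = 0.0011), Mrpl28 by −0.73 ± 0.14 (adjusted p = 3.9e-04) and Mrpl12 by −0.61 ± 0.12 (adjusted p = 5.4e-04). In the other direction were Mrpl17 (0.72 ± 0.14, adjusted p = 3.8e-04) and Mrps30 (0.49 ± 0.13, adjusted p = 0.0039). Without TFEB KO replicate 2 the number higher was 7.

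The same test for TFE3 found fewer differences, with 6 genes higher without MITF (background 10.2%) and 3 lower (background 10%), and a median of 0.13. Mrps6, which fell in the TFE3 KO and rose when TFE3 was lost after MITF, differed by 0.83 ± 0.13 (limma adjusted p = 5.5e-05). Mrpl30 differed by 0.58 (adjusted p = 8.1e-04) and Mrps5 by 0.49 (adjusted p = 0.0046). Mrpl18 (−0.48, adjusted p = 0.0064) and Mrpl33 (−0.46, adjusted p = 0.016) differed the other way. The number higher was 10 without TFE3 KO replicate 1, and the number lower 5 without TFE3 KO replicate 3. The scatter of the 2 backgrounds shows these members off the diagonal.

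**Figure D4:**
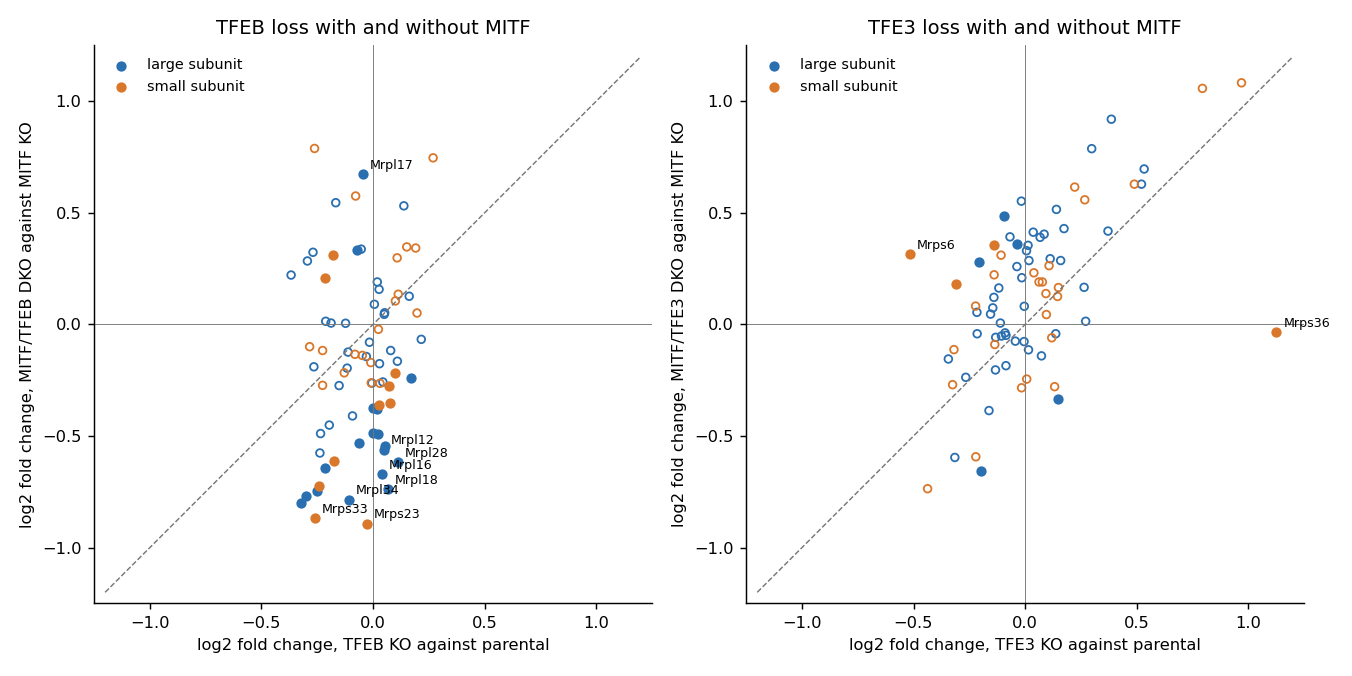
Log2 fold change of each member on loss of TFEB (left) or TFE3 (right) in cells with MITF (horizontal axis) and without it (vertical axis). The dashed line marks equal change, and filled points have an interaction with adjusted p under 0.05 (limma): 28 members for TFEB, most below the line, and 9 for TFE3.

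Large and small subunit genes moved in the same direction in most comparisons, and their medians stayed close. The large minus small difference in median log2 fold change was 0.06 (MITF KO), −0.08 (TFE3 KO), −0.02 (TFEB KO), −0.06 (TFEB/TFE3 DKO), 0.08 (MITF/TFE3 DKO), −0.10 (TKO) and −0.13 (MITF/TFEB DKO). Taking the subunit from the structure instead of the symbol changed the sign in 1 of 11 comparisons, the MITF/TFE3 DKO against the MITF KO (−0.04 to 0.012). Leaving out 17 members with a mean under 5 CPM or a shared 3′ end, a choice made after seeing the data, gave −0.018 in the TKO and 0.12 in the MITF KO. Bacterial homologues and mitochondria-specific members also had like medians, −0.33 and −0.38 in the MITF/TFEB DKO, and −0.38 and −0.28 in the TKO.

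In the MITF/TFEB DKO and TKO, where many genes of all kinds changed, genes were also set against their surroundings on the chromosome. Neighbours were a window of 100 genes in chromosome order with a mean of at least 5 CPM, from which other members were then removed. The median over members of the neighbour medians was −0.04 and −0.06, and the median difference of a member from its neighbours was −0.31 and −0.27 respectively.

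Genes with which the mitochondrial ribosome works were compared next, beside the shares of all genes that fell (27.3% and 27.9%) and rose (28.8% and 28.3%) in the MITF/TFEB DKO and TKO. Of 25 genes for mitoribosome assembly factors, 9 (36%) fell and 2 (8%) rose in the MITF/TFEB DKO (median −0.27) and 10 (40%) fell and 2 rose in the TKO (median −0.17). Rcc1l, a factor bound to the assembling particle, fell by 1.09 on the log2 scale in the MITF/TFEB DKO (limma adjusted p = 8.0e-08). In the MITF KO 4 (16%) fell and 3 (12%) rose, beside 17.8% and 20.1% of all genes, and Noa1, a GTPase of small subunit assembly, fell by 0.76 (adjusted p = 1.2e-04). Trmt61b, which methylates mitochondrial RNA, was lower in the TFE3 KO (−0.66, adjusted p = 0.0070) and the TFEB/TFE3 DKO (−0.76, adjusted p = 0.0029) and higher in the MITF/TFE3 DKO (0.71, adjusted p = 8.1e-04). Of 5 subunits of the particle with other names, 1 (20%) fell in the MITF/TFEB DKO (median −0.11) and 3 (60%) in the TKO (median −0.295), with 0 called higher in either. The 1 in the MITF/TFEB DKO was Chchd1 of the small subunit (−0.59, limma adjusted p = 3.7e-06).

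Of 18 genes for mitochondrial translation factors, 4 (22.2%) fell and 1 (5.6%) rose in the MITF/TFEB DKO (median −0.13) and 6 (33.3%) fell and 1 rose in the TKO (median −0.07), with the falls near the share of all genes. Lrpprc, which stabilizes mitochondrial messenger RNA, fell by 0.95 and 0.84 on the log2 scale (limma adjusted p = 1.1e-05 and 4.8e-05). Against the MITF KO it fell by 1.45 in the MITF/TFEB DKO (adjusted p = 3.2e-08). Of 17 mitochondrial aminoacyl-tRNA synthetase genes, 4 rose and 4 fell in the MITF/TFEB DKO (23.5% each, median −0.07), also near the share of all genes, and Iars2, for isoleucine, rose (0.67, adjusted p = 2.0e-05). Of 11 genes of mitochondrial DNA transcription and replication, 1 rose and 1 fell there (9.1% each, median 0.08). In the TKO Twnk, the mitochondrial DNA helicase, fell by 0.83 (adjusted p = 2.1e-05). The RNAs made from mitochondrial DNA itself, 13 messenger and 2 ribosomal RNAs searched by symbol, were not among the table's genes, so they were not analysed here.

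The nuclear genes of the respiratory chain and ATP synthase, for which the mitochondrial ribosome makes partner subunits, had other counts in the MITF KO. There 29 of 80 (36.2%) rose and 2 (2.5%) fell (median 0.21), beside 3 and 28 of the 78 ribosomal protein genes and 20.1% and 17.8% of all genes. In the MITF/TFE3 DKO 33 (41.2%) rose and 3 (3.8%) fell (median 0.31), beside 20.2% and 21.7% of all genes. Cox7a2l, a factor of supercomplex assembly, rose by 0.87 in the MITF KO (limma adjusted p = 5.2e-06), and Cox7b of complex IV by 1.08 in the MITF/TFE3 DKO (adjusted p = 6.3e-06). In the MITF/TFEB DKO 22 (27.5%) fell and 12 (15%) rose (median −0.08) and in the TKO 22 fell and 15 (18.8%) rose (median −0.06). These falls from the parental line were near the share of all genes. Against the MITF KO, 40 (50%) were lower and 2 (2.5%) higher in the MITF/TFEB DKO (background 23.9% and 25.1%, median −0.295). In the TKO 40 were lower than in the MITF KO and 5 (6.2%) higher (background 23.9% and 26.1%, median −0.255). Of the 78 ribosomal protein genes, 33 and 31 were lower in these 2 comparisons.

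The cytosolic ribosomal proteins, which build the ribosome that makes all the members, fell in 58 of 81 genes (71.6%) in the MITF KO (background 17.8%, median −0.47), 30 (37%) in the TFEB/TFE3 DKO (background 4.09%, median −0.34), 60 (74.1%) in the MITF/TFEB DKO (background 27.3%, median −0.52) and 57 (70.4%) in the TKO (background 27.9%, median −0.46). In the MITF/TFE3 DKO 20 (24.7%) fell and 4 (4.9%) rose (background 21.7% and 20.2%, median −0.00). Against the MITF KO that line had 43 (53.1%) higher (background 18.1%, median 0.41), beside 24 of the 78 mitochondrial genes (median 0.15). Rpl22l1, the paralogue of Rpl22, fell by 1.85 in the MITF/TFEB DKO (limma adjusted p = 3.4e-09). No difference between these lists was tested.

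**Figure D5:**
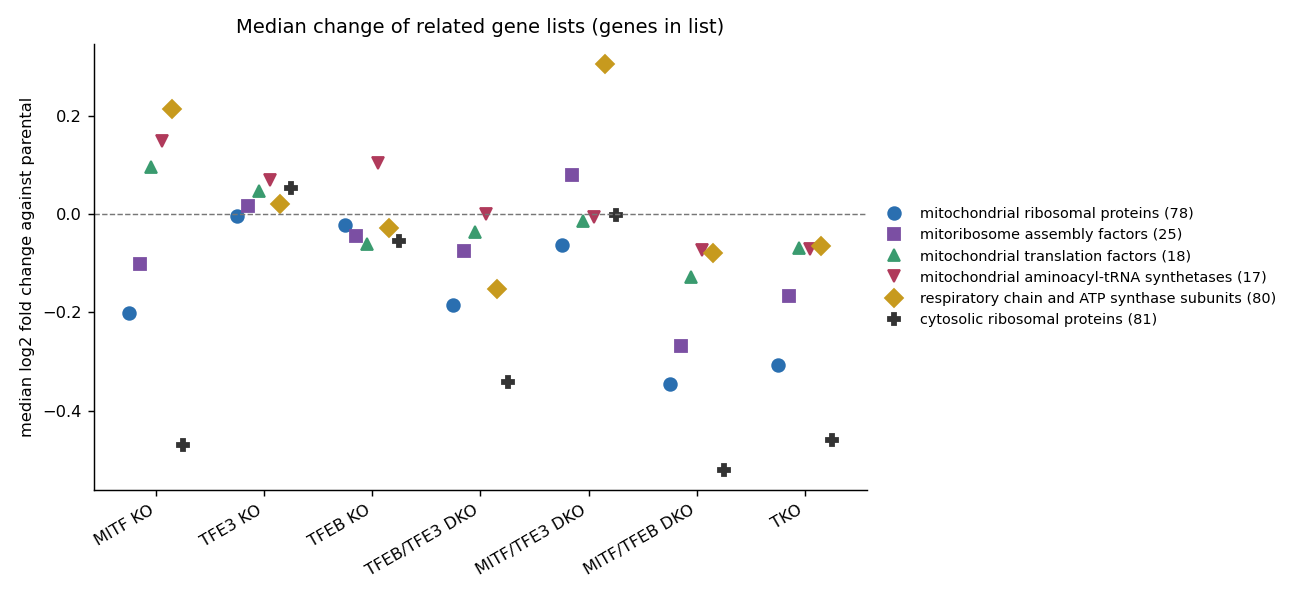
Median log2 fold change against the parental line of the 78 mitochondrial ribosomal protein genes and of 5 related lists in the 7 knockout lines. Respiratory chain genes are highest in the MITF KO (0.21) and MITF/TFE3 DKO (0.31), where the mitochondrial ribosomal proteins are at −0.20 and −0.06, and the cytosolic ribosomal proteins are lowest in 4 lines.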

How the data were processed

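RNA from 24 cultures was made into 3′ polyA libraries (QuantSeq Forward), so a read marks a transcript end. Per the labels and methods, the authors ran FastQC 0.11.9, Trim Galore 0.6.5 with cutadapt 2.10, and STAR 2.7.8a against mm39, then edgeR. The counting tool, annotation and filter are not given in the sources used here. The deposited signal is edgeR-normalised CPM (counts scaled by library size), scaled by the authors with library factors of 0.925 to 1.07. Whole reads were recovered from the value steps, with 99.7% to 99.95% of values within 0.01 of a whole number.

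Values were tested as log2(value + 1) with limma 3.58.1 (R 4.3.3, trend, 1 fit to all lines) over 12010 genes. A gene was called at a Benjamini-Hochberg adjusted p under 0.05. edgeR 4.0.16 quasi-likelihood tests on the recovered reads were an alternative, calling 48 members lower in the MITF/TFEB DKO. On simulated data for the MITF KO comparison over 12010 genes, limma recovered 18% of 1.25-fold, 88% of 1.5-fold and 100% of 2-fold changes. The simulation changed 50 genes per fold, none with few reads, at a fixed spread. In the real comparison 2132 genes were called lower and 2409 higher, so these rates need not hold for it. Libraries of a line differed by more than counting error (chi-square per degree of freedom 4.61 to 53.4).

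The members and lists were chosen with earlier results of these data known. In each comparison the 3 largest rises and falls past the threshold and any 2-fold change were named, with the highest, lowest, most and least variable members and 10 fixed landmarks. For each related list the largest rise and fall were eligible. Positions come from GENCODE vM39 (GRCm39).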

Additional observations from a re-analysis of the deposited data

Results flagged for a closer look

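The change on TFEB loss differed between cells with and without MITF, by the interaction test, for 28 members, 24 with a lower and 4 with a higher value without MITF. The members furthest apart were Mrps23 (−0.87), Mrpl18 (−0.80) and Mrpl28 (−0.73) on the lower side, and Mrpl17 (0.72), Mrps30 (0.49) and Mrps16 (0.42) on the higher side. The call for Mrps16 was lost without parental replicate 3 or MITF KO replicate 1, at adjusted p (limma) up to 0.056.

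The change on TFE3 loss differed for 9 members, 6 higher and 3 lower without MITF. Mrps6 (0.83), Mrpl30 (0.58) and Mrps5 (0.49) were higher, and Mrps36 (−1.16), Mrpl18 (−0.48) and Mrpl33 (−0.46) lower. That for Mrps36 rested on values under 5 CPM and was lost in 8 of 12 fits that left out 1 library.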

How the results depend on the processing

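No direction that passed the test reversed in the fits tried. Under the 6 whole-data alternatives, counts of called members stayed within 1.5 times except in small counts. edgeR on recovered reads gave 1 (MITF KO), 2 (TFE3 KO), 2 (MITF with TFE3 lost) and 4 (MITF with TFEB lost) members at 2-fold and 1 member lower in the TFEB KO. A pseudocount of 5 gave 0 (TFE3 KO), 0 (MITF/TFE3 DKO), 1 (DKO of MITF and TFEB) and 1 (TKO) at 2-fold. Median-of-ratios size factors gave 1 lower in the TFEB KO. A minimum mean of 5 CPM gave 1 higher and 0 at 2-fold in the TFE3 KO, and large minus small medians of −0.05 (TKO) and −0.023 (TKO against MITF KO). Structural subunits gave 0.012 for the MITF/TFE3 DKO against the MITF KO. Without low or shared members (added after seeing the data) the difference was 0.12 (MITF KO), −0.027 (TFEB/TFE3 DKO), 0.043 (MITF/TFE3 DKO), −0.018 (TKO), −0.13 (MITF/TFE3 DKO against MITF KO) and −0.10 (MITF/TFEB DKO against MITF/TFE3 DKO). The cause of these shifts was not tested, beyond the members each setting removes.

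Leaving out 1 library at a time gave 18 to 24 lower in the MITF KO, 0 to 4 higher, 1 to 9 lower and 0 to 3 at 2-fold in the TFE3 KO, 0 to 2 lower in the TFEB KO and 4 to 8 lower in the TFEB/TFE3 DKO. It gave 4 to 10 higher and 11 to 18 lower in the MITF/TFE3 DKO, 1 to 3 at 2-fold in the MITF/TFEB DKO, and 3 to 7 higher and 1 to 2 at 2-fold in the TKO. Against the MITF KO it gave 8 to 21 higher in the MITF/TFE3 DKO and 4 to 7 higher in the TKO, and for the MITF/TFEB against the MITF/TFE3 DKO 2 to 5 higher. The interactions ranged over 3 to 7 higher for TFEB, and 5 to 10 higher and 2 to 5 lower for TFE3. The large minus small difference ranged over −0.078 to −0.008 (TFEB KO), −0.097 to −0.023 (TFEB/TFE3 DKO), 0.006 to 0.13 (MITF/TFE3 DKO), −0.136 to −0.052 (TKO), −0.045 to −0.005 (MITF/TFE3 DKO against MITF KO) and −0.108 to −0.045 (TKO against MITF KO). Of 69 calls for members eligible to be named, 48 held without any 1 library and 21 were lost in at least 1 such fit. For the related lists 79 of 131 held.

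With the replicate number as a block, 48 members were lower in the MITF/TFEB DKO, and every count stayed within 1.5 times. On average, same-numbered libraries of different lines showed little correlation (mean 0.02, range −0.66 to 0.77), and 10 of 24 libraries correlated best with their own number. An effect of the replicate number shared by only some lines was not tested. Mrps18b and Mrps36 had as few as 9 reads in a library. Mrps28 (13 to 246 reads) varied within a line beyond counting error, and what sets its spread was not tested.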
